A study of Mus musculus with 38 samples.

Results

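Liver makes glucose from lactate, amino acids and glycerol when food is short, and insulin turns this production down. The 9 genes described here encode enzymes of glucose production, a glucose carrier, an enzyme of glucose use and proteins of the insulin response. They are Pck1, G6pc, Fbp1, Pcx, Tat, Pklr, Slc2a2, Irs2 and Igfbp1. They were taken by name, as the probe sets annotated to these symbols, with no filter on their values. The list itself was chosen with earlier results of these data known. They are 9 of the 17728 genes tested and were read by 17 of the 45101 probe sets on the array.

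RNA came from livers of male mice of the outbred CD-1 stock, aged 6 to 8 weeks per the labels, and was read on 38 Affymetrix whole-genome mouse arrays. In the conazole study, mice ate propiconazole at 2500 ppm (intake 349.6 ± 46.7 mg/kg/day), triadimefon at 1800 ppm (257.1 ± 33.5 mg/kg/day; the labels spell it tridimefon, or Triad in titles) or control feed, with 3 arrays per group. In the phenobarbital study, mice ate phenobarbital at 850 ppm (97.2 ± 5.9 mg/kg/day) or control feed, with 5 arrays per group. Feeding lasted 4 or 30 days in both studies, which gives 10 groups. The labels call the arrays biological replicates and do not say whether livers were pooled, and p-values measure the spread between these arrays. The 3 doses differed and were not matched, and each study had its own controls, so study and array batch cannot be told apart. Whether the mice were fasted, and the time of day at which livers were taken, are not given in the sources used here. Propiconazole and triadimefon are triazole fungicides, and phenobarbital is a barbiturate that activates the nuclear receptor CAR in rodent liver.

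In gluconeogenesis, Pcx (pyruvate carboxylase) turns pyruvate into oxaloacetate in mitochondria, Pck1 (cytosolic phosphoenolpyruvate carboxykinase) turns oxaloacetate into phosphoenolpyruvate, Fbp1 (fructose bisphosphatase) removes a phosphate from fructose bisphosphate, and G6pc (the catalytic subunit of glucose-6-phosphatase) releases free glucose. Glucagon through cAMP, glucocorticoids and the forkhead factor FOXO1 raise transcription of Pck1, G6pc and Igfbp1, and insulin lowers it. Tat (tyrosine aminotransferase) is induced by glucocorticoids. Slc2a2 encodes GLUT2, the glucose carrier of the hepatocyte membrane. Pklr (liver pyruvate kinase) makes pyruvate in glycolysis and responds to glucose and insulin. Irs2 is an adaptor that carries the insulin receptor's signal, and Igfbp1 is a secreted protein that binds insulin-like growth factors.

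The promoters of 3 genes are shown because their genes are the classical targets of cAMP and insulin in liver: Igfbp1, which had the largest log2 difference among the members, G6pc and Pck1. Each window runs from 250 bases before to 50 bases after the transcription start in RefSeq (mouse build GRCm38.p6), 5′ to 3′ on the gene's strand, which is the plus strand for all 3. Capitals mark the exact letters of a textbook element: ACGTCA, the core of a cAMP response element, or CAAAACA, an insulin response sequence, which reads TGTTTTG where it lies on the other strand.

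Igfbp1, chr11:7197537-7197836: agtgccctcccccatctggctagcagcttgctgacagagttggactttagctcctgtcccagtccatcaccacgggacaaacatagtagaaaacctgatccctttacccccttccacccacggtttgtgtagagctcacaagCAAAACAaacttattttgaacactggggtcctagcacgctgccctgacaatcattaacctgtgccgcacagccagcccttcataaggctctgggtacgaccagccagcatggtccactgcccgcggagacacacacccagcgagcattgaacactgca

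G6pc, chr11:101367466-101367765: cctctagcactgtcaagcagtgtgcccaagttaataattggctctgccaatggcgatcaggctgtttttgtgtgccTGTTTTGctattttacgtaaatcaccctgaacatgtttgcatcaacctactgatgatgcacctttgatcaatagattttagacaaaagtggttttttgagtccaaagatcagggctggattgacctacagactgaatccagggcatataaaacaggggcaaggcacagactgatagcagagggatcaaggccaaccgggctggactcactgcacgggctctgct

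Pck1, chr2:173152823-173153122: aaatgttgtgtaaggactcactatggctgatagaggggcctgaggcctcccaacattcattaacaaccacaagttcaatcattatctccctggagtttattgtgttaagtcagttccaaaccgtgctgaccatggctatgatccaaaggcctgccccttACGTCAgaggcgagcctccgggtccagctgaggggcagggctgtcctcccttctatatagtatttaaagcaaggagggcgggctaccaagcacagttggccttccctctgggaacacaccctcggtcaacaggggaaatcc

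CAAAACA began at -108 in Igfbp1 and, on the opposite strand, covered the 7 bases from -174 in G6pc. ACGTCA began at -91 in Pck1. Among all 11 start sites of the 9 members, CAAAACA also stood in the Irs2 window, at -37 on the opposite strand. The E-box CACGTG was found in the Irs2 window and in 1 of the Pcx windows, and the forkhead letters GTAAACA in 0 windows. Searched on both strands, CAAAACA occurred in 6.32%, ACGTCA in 7.55%, CACGTG in 7.17% and GTAAACA in 3.66% of 32544 RefSeq promoter windows of the same length. These matches describe the letters of the windows only.

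Intensities below are quantile normalized, and changes are treated minus same-day control on the scale log2(intensity + 16), with SE. Calls came from limma, at p under 0.05 after Benjamini-Hochberg adjustment over all genes. Background was set at an intensity of 55.1 from olfactory receptor genes. Pck1, G6pc, Fbp1, Pcx, Tat, Pklr and Slc2a2 were above it on all 38 arrays, Igfbp1 on 34 and Irs2 on 12. Of 12 listed hepatocyte markers, 10 were measured and all 10 had a mean above background in every group. Cyp2b10, a CAR target taken as the check of exposure, was 27.8-fold higher under propiconazole, 21.6-fold under triadimefon and 11.8-fold under phenobarbital on day 4, and 61.4-, 52.3- and 17.0-fold higher on day 30, with all 6 called. On day 30 it was above background on 2 of 3 conazole-study controls, whose log2 SD was 1.70, so the size of the conazole folds there is uncertain.

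Replicate 2 of propiconazole day 4 was unlike the rest. The 3′ minus 5′ difference of Gapdh (log2) was 6.39 there and lay between -0.37 and 0.22 on 37 others, and that of Pcx was 5.83, against 1.79 to 4.26. A 3′ excess is a sign of short RNA. The model pooled residuals over groups, so the array also touched the SE of comparisons it took no part in. In the other conazole comparisons the SE without it was 0.077 for Pcx, against 0.127 with it, and 0.263 for Pklr, against 0.316. It was the same for Fbp1 and Tat and slightly larger for Pck1 and Igfbp1. Values are given with and without it where it matters. It is called the array that stood apart. Its Actb 3′ minus 5′ difference was 1.835, against 0.28 to 1.30 on the others. On day 4 that difference was 0.80 to 1.30 in conazole-study controls, 0.62 to 1.835 under propiconazole and 0.76 to 0.94 under triadimefon. On day 30 it was 0.366 to 0.369, 0.345 to 0.467 and 0.422 to 0.471, in the same order. All conazole-study arrays of day 4, controls included, thus had a larger Actb 3′ excess than those of day 30. Its part in differences between days was not tested.

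Across the 9 members, called changes were few and all were decreases. In propiconazole livers on day 4, 3 of 9 were lower and 0 higher, where 13.9% of all genes were called and 6.53% were called lower. In triadimefon livers on day 4, 1 of 9 was lower (3.75% of all genes called, 1.65% lower). In propiconazole livers on day 30, 1 of 9 was lower (10.8% called, 5.53% lower). Limma called 0 members in triadimefon livers on day 30 (5.4% called, 3% lower) and 0 in phenobarbital livers on day 4 (0.677%, 0.147% lower) or day 30 (0.479%, 0.0846% lower). Members at an unadjusted p under 0.05 numbered 1, 2 and 3 there, against 3389, 1709 and 1186 of all 17728 genes. The median change of the members was -0.42, -0.36 and -0.24 on day 4 and -0.33, -0.18 and -0.19 on day 30 (propiconazole, triadimefon, phenobarbital), where the median over all genes lay between -0.002 and 0.034. Between 6 and 8 of the 9 members had a change below 0 in each comparison. These values include the array that stood apart. Without it, the propiconazole day 4 changes of G6pc and Igfbp1 turned above 0, at 0.16 and 0.07. Those of Fbp1, Pcx, Pklr, Slc2a2 and Irs2 stayed below 0. All treated arrays lay below all controls for 3, 4 and 3 members on day 4 and for 3, 2 and 2 on day 30, in the same order of compounds. The same held for 6.85%, 8.9% and 2.22% of all genes on day 4 and for 12.4%, 11.8% and 1.97% on day 30. The change on day 30 differed from that on day 4 in 1 member for propiconazole, where 1.95% of all genes were called, in 0 for triadimefon (1.31%) and in 0 for phenobarbital (0.00564%). At an unadjusted p under 0.05 these were 6, 0 and 0 members, and 2877, 2487 and 481 of all genes. Propiconazole and phenobarbital changes differed in 1 member on day 4 (1.83%) and in 0 on day 30 (1.92%), and triadimefon and phenobarbital changes in 0 on day 4 (0.0451%) and 0 on day 30 (0.451%). Members at an unadjusted p under 0.05 numbered 1, 2 and 1 in the comparisons where limma called 0, against 2670, 1866 and 2105 of all genes. In the conazole study, both compounds were set against the same control arrays.

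**Figure D1:**
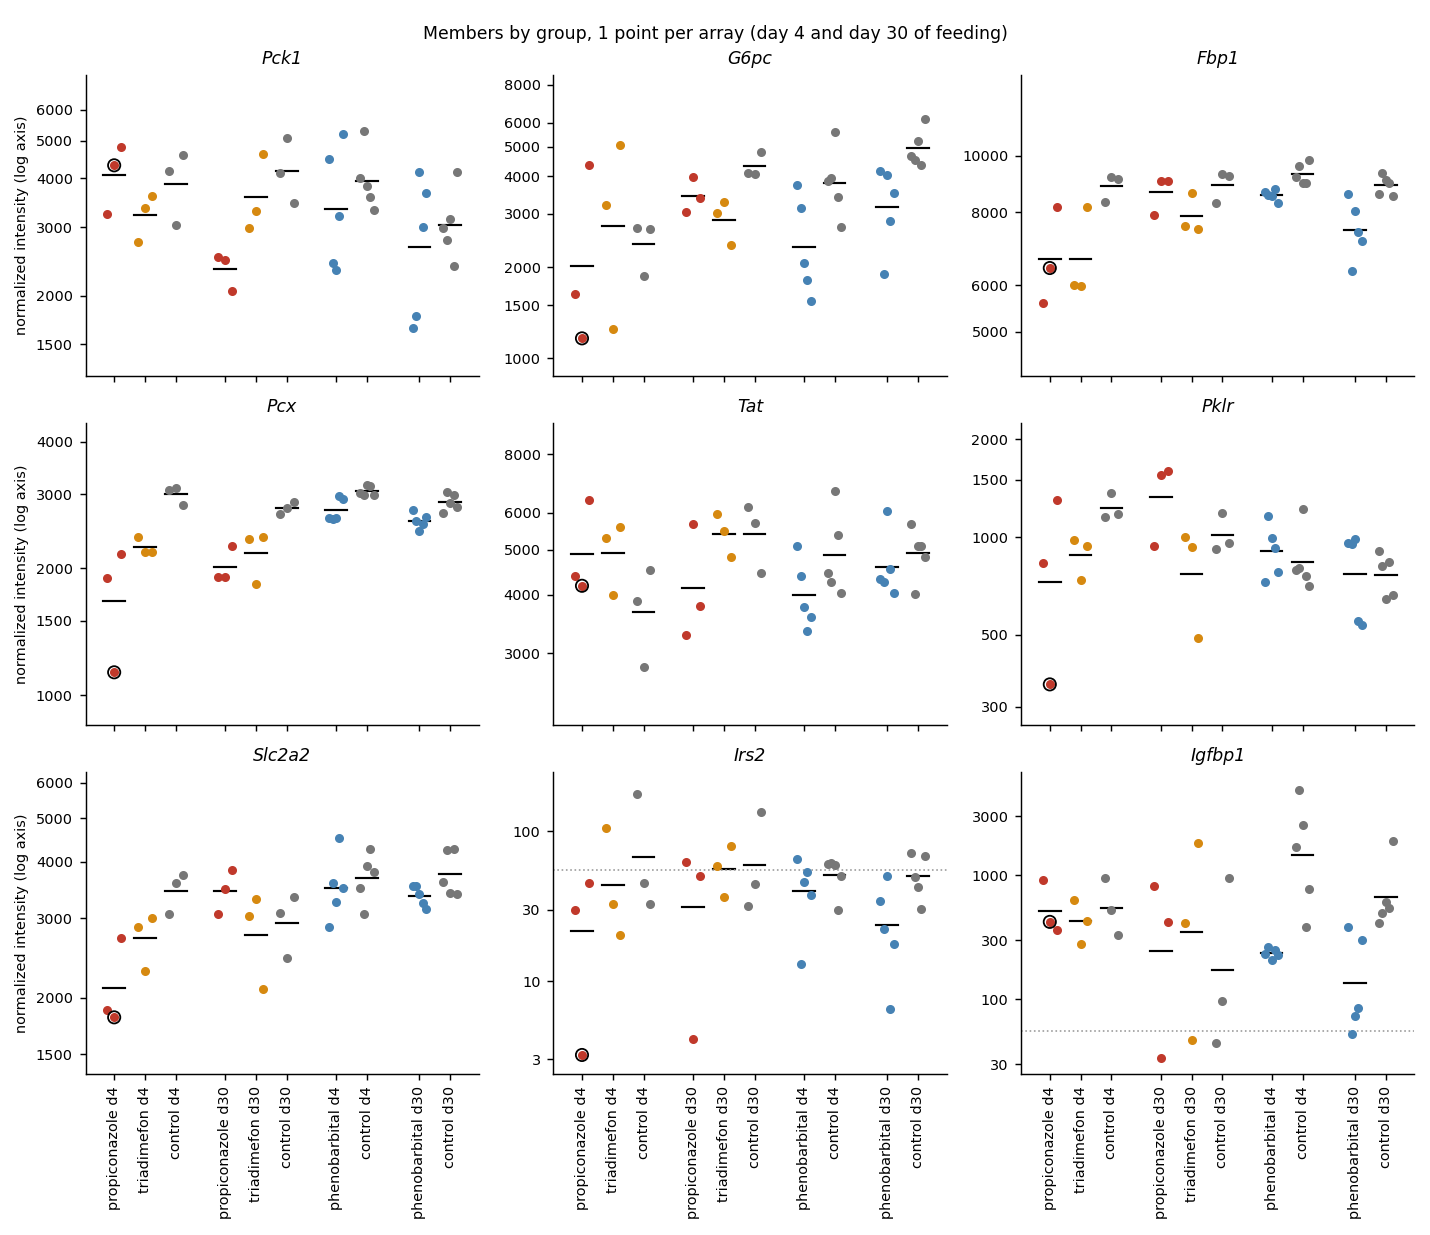
Normalized intensity (log axis, with its own range in each panel) of the 9 members on each of the 38 arrays, by group, with treated groups left of their controls. Short lines are group means of log2 values, the circled point is the array with the 3′ excess, and the dotted line in the Irs2 and Igfbp1 panels is background. All 12 conazole Pcx points lie below the 6 control points of that study, and all 5 phenobarbital Igfbp1 points below the 5 control points on each day.

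**Figure D2:**
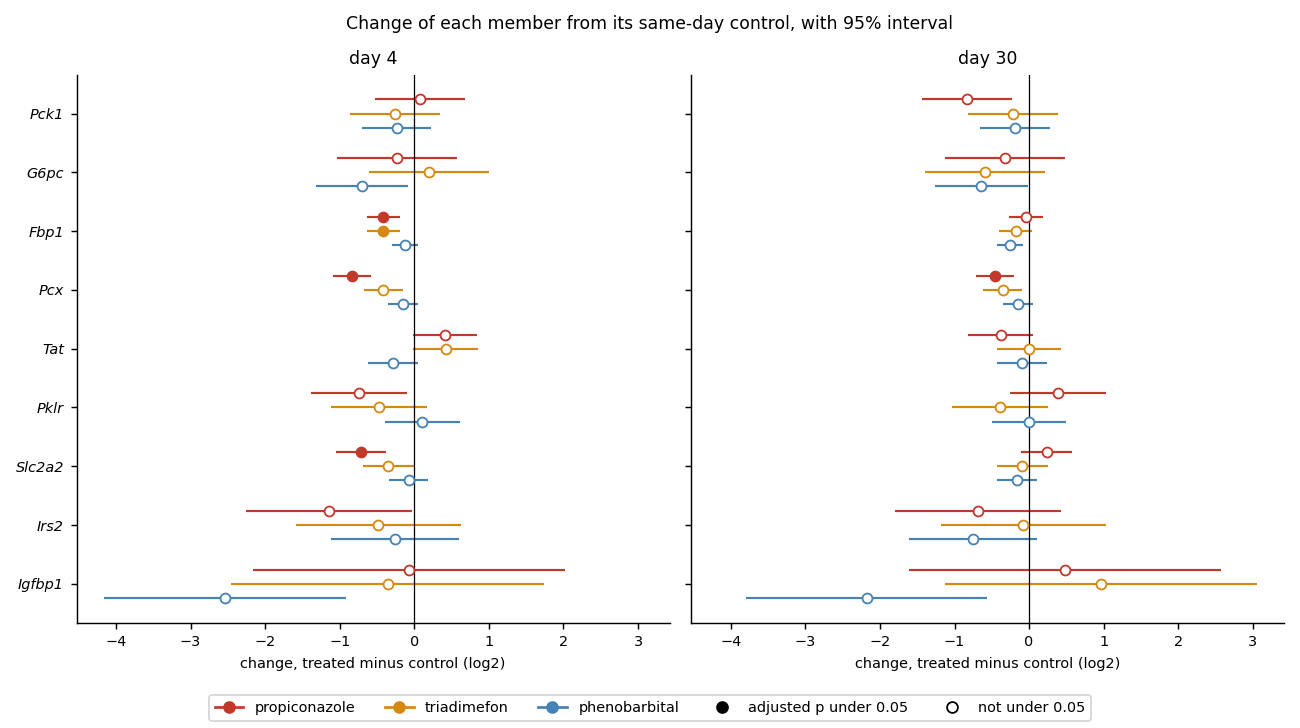
Change of each member from its same-day control (log2) with the 95% interval from limma, on day 4 (left) and day 30 (right). Filled points had an adjusted p under 0.05, and all 5 of them lie below 0. The Igfbp1 intervals are the widest.

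Pcx had the clearest difference under the conazoles, and passed the test for propiconazole on both days. In livers fed propiconazole for 4 days its intensity was 1896, 1133 and 2168, and in triadimefon livers 2372, 2190 and 2182, against 3068, 3107 and 2823 in control livers. On day 30 it was 1908, 1908 and 2255 under propiconazole and 2345, 1839 and 2370 under triadimefon, against 2685, 2783 and 2871 in controls. No treated array reached any control array of its day. Over both days, the 12 conazole arrays ran between 1133 and 2372 and the 6 control arrays between 2685 and 3107.

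The Pcx change under propiconazole was -0.84 ± 0.13 on day 4 (1.79-fold lower, adjusted p = 8.02e-05) and -0.46 ± 0.13 on day 30 (1.37-fold lower, adjusted p = 0.0176). Under triadimefon it was -0.41 ± 0.13 on day 4 (adjusted p = 0.0618) and -0.35 ± 0.13 on day 30 (adjusted p = 0.10), neither past the threshold. Without the array that stood apart, the day 4 propiconazole change was -0.56 ± 0.09 (adjusted p = 0.000152). The same removal narrowed the shared error: the propiconazole day 30 change then had an adjusted p of 0.000143, and the triadimefon changes passed, at 0.0016 on day 4 and 0.00345 on day 30. The propiconazole day 30 call was lost without propiconazole replicate 1 (adjusted p = 0.0598), propiconazole replicate 2 (0.0691) or control replicate 3 (0.0628). It was also lost with the values as deposited (0.139), with median centring (0.0621) and with the spread taken from the compared arrays alone (0.0693). With the spread of the compared arrays alone the propiconazole day 4 call was lost too (adjusted p = 0.447).

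Phenobarbital livers showed a smaller Pcx difference. The intensity was 2632, 2624, 2635, 2978 and 2918 on day 4, against 3012, 2984, 3157, 3131 and 2989 in controls. On day 30 it was 2752, 2587, 2451, 2545 and 2642, against 2711, 3040, 2863, 2986 and 2800. The day 4 groups did not overlap and the day 30 groups did. Limma called neither change, -0.15 ± 0.10 on each day (adjusted p = 0.733 and 0.961, 95% intervals -0.35 to 0.05). The exact permutation test on Pcx alone gave p = 0.0079 on day 4 and 0.0159 on day 30. Any 5 against 5 arrays that do not overlap give 0.0079, the smallest possible, so that value only restates the lack of overlap. With doses and studies unlike, the day 4 propiconazole change minus the phenobarbital change was -0.69 ± 0.16 (adjusted p = 0.0256), and -0.41 with an adjusted p of 0.0502 without the array that stood apart. It also missed the threshold without control replicate 1 (0.0594) or control replicate 2 (0.0641) of the conazole study. For triadimefon on day 4 that difference was -0.27 ± 0.16 (adjusted p = 0.599).

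Pcx is also read on this array by 4 further control probe sets placed along the transcript. The 3′ control set was lower under both conazoles on both days. Its change was -0.76 ± 0.10 and -0.40 ± 0.10 on day 4 (propiconazole, triadimefon; limma's adjusted p over 33618 probe sets 2.78e-05 and 0.0273) and -0.51 ± 0.10 and -0.375 ± 0.10 on day 30 (0.00186 and 0.0347). Under phenobarbital its differences were -0.17 ± 0.08 on day 4 and -0.12 ± 0.08 on day 30, neither called. The 5′ and MB sets passed for propiconazole on day 4 alone, at -1.65 ± 0.54 and -2.53 ± 0.71, and the MA set passed in 0 comparisons. That comparison included the array that stood apart, whose Pcx 3′ minus 5′ difference was 5.83. The values of the control sets are given only with it. The 5′ and MB sets were each above background on 37 arrays. The 3′ minus 5′ difference averaged 3.92 ± 2.03 in propiconazole and 3.02 ± 1.07 in triadimefon livers on day 4, against 3.03 ± 0.40 in controls (SD, n = 3 each). On day 30 it was 2.52 ± 0.31 and 2.34 ± 0.03, against 2.09 ± 0.42. Its part in the Pcx result was not tested.

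**Figure D3:**
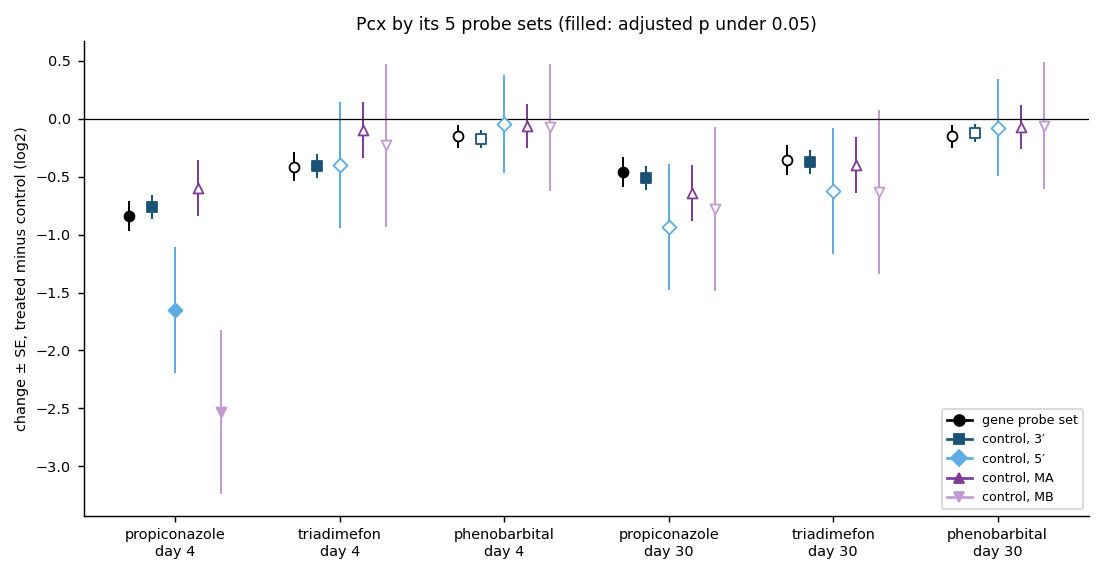
Change of Pcx ± SE (log2) in each of the 6 comparisons, for the gene's own probe set and the 4 control probe sets, filled where the adjusted p was under 0.05. The 3′ control set is below 0 and filled under both conazoles on both days, and the 5′ and MB sets have the largest errors.

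The largest Pck1 difference was in propiconazole livers on day 30, and it missed the threshold. In propiconazole livers on day 30 its intensity was 2513, 2471 and 2056, against 4136, 5069 and 3448 in control livers. The groups did not overlap, as was so for lower values of 12.4% of all genes in that comparison. The change was -0.83 ± 0.30 (1.78-fold lower) with an adjusted p of 0.0678, and 0.0471 when only genes above background were tested. Triadimefon livers on day 30 held 2989, 3298 and 4628 and overlapped with the controls. In the other 5 comparisons its difference lay between -0.265 and 0.073, with adjusted p values of 0.715 or more. A second probe set, above background on 37 arrays, gave -1.20 ± 0.78 for propiconazole on day 30, not called. On day 4 it gave -1.49 ± 0.78 with the array that stood apart included, also not called. The third was below background on all arrays.

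Fbp1, the brightest member, was lower in both conazole groups on day 4. Its intensity was 5591, 6421 and 8176 under propiconazole and 6000, 5983 and 8176 under triadimefon, against 8340, 9183 and 9113 in controls. In each group 1 array lay close to the lowest control. Both changes were -0.42 ± 0.11 (1.33-fold lower), with adjusted p values of 0.0112 for propiconazole and 0.0282 for triadimefon. The propiconazole call was lost without propiconazole replicate 1 (0.0681), and the triadimefon call without triadimefon replicate 1 (0.167), triadimefon replicate 2 (0.131), control replicate 2 (0.104) or control replicate 3 (0.0691). Median centring also ended both calls (0.0766 for propiconazole and 0.0531 for triadimefon), the values as deposited ended the triadimefon call (-0.30, 0.132), and with the spread of the compared arrays alone neither passed (0.514 and 0.309). On day 30 the difference was -0.04 ± 0.11 under propiconazole and -0.18 ± 0.11 under triadimefon, neither called.

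In phenobarbital livers Fbp1 was 8650, 8567, 8535, 8757 and 8286 on day 4, against 9183, 9590, 8981, 8981 and 9827 in controls. These groups did not overlap, although the change was small, -0.12 ± 0.085 (adjusted p = 0.77, exact permutation p = 0.0079). On day 30 the arrays held 8597, 6354, 8048, 7386 and 7151, against 8597, 9317, 9072, 8981 and 8535. The highest treated array equalled 1 control and exceeded another. The day 30 change was -0.25 ± 0.085 (adjusted p = 0.332, exact permutation p = 0.0238).

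G6pc varied widely between arrays of 1 group, and limma called 0 of its 6 differences, with 2 at an unadjusted p under 0.05, both under phenobarbital. In phenobarbital livers on day 30 its intensity was 4153, 1900, 4036, 2833 and 3509, against 4645, 4506, 5227, 4354 and 6181 in controls. All 5 treated arrays lay below all 5 controls. The change was -0.64 ± 0.31 (1.56-fold lower, adjusted p = 0.709), and the exact permutation p for G6pc alone was 0.0079, the smallest possible. On day 4 the treated arrays held 3733, 3144, 2073, 1812 and 1544, against 3847, 3927, 5611, 3408 and 2714, an overlapping difference of -0.70 ± 0.31 (adjusted p = 0.414, exact permutation p = 0.0556).

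Under the conazoles, G6pc on day 30 was 3048, 3961 and 3378 for propiconazole and 3025, 3279 and 2372 for triadimefon, against 4104, 4073 and 4816 in controls. Both groups lay below the controls. The changes were -0.33 ± 0.39 and -0.59 ± 0.39, and neither was called. On day 4, with single arrays between 1165 and 5074, they were -0.23 ± 0.39 and 0.20 ± 0.39 (propiconazole, triadimefon), and the groups overlapped with the controls. Without the array that stood apart, the propiconazole day 4 change was 0.16 ± 0.42.

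Tat was called in 0 of the 6 comparisons, and 0 had an unadjusted p under 0.05. On day 4 its intensity was 4382, 4182 and 6382 in propiconazole livers and 5304, 3993 and 5600 in triadimefon livers, against 3887, 2806 and 4518 in controls. The groups overlapped. The changes were 0.41 ± 0.21 and 0.42 ± 0.21 (95% intervals -0.02 to 0.85 and -0.01 to 0.85). The other 4 changes lay between -0.38 and 0.00.

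Slc2a2 was lower in propiconazole livers on day 4 and not on day 30. Its day 4 intensity was 1882, 1809 and 2717, against 3074, 3584 and 3742 in controls. Every treated array was below every control. The change was -0.71 ± 0.17 (1.64-fold lower, adjusted p = 0.00476), and -0.61 ± 0.18 (0.0342) without the array that stood apart. With the spread of the compared arrays alone this day 4 call was lost (adjusted p = 0.426). On day 30 propiconazole livers held 3068, 3489 and 3847, against 3080, 2445 and 3351, a change of 0.23 ± 0.17 that was not called. The day 30 change minus the day 4 change was 0.95 ± 0.24 (adjusted p = 0.0313). That difference missed the threshold without any 1 of 5 arrays: the one that stood apart (0.0548), control replicates 2 (0.0665) and 3 (0.0573) of day 4, control replicate 2 of day 30 (0.0894) and propiconazole replicate 3 of day 30 (0.0867). It also missed with median centring (0.0597) and with the spread of the compared arrays alone (0.453). In triadimefon livers on day 4 Slc2a2 was 2873, 2296 and 3008, also below all controls, with a change of -0.35 ± 0.17 (adjusted p = 0.257). Under phenobarbital its differences were -0.07 ± 0.13 on day 4 and -0.16 ± 0.13 on day 30, with neither called.

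Pklr was read at 832.5, 351.6 and 1299 in propiconazole livers on day 4, against 1155, 1368 and 1176 in controls. The lowest value was on the array with the 3′ excess, and the groups overlapped. The change was -0.75 ± 0.32 (adjusted p = 0.113), and -0.24 without that array. The 2 other Pklr probe sets, above background on 38 and 37 arrays, gave -0.79 ± 0.38 and -1.79 ± 0.65 with that array included, neither called. Triadimefon livers on day 4 held 979.5, 739.4 and 938.2, below all controls, with a change of -0.48 ± 0.32 (adjusted p = 0.455). On day 30 the changes were 0.38 ± 0.32 under propiconazole and -0.39 ± 0.32 under triadimefon, neither called. Under phenobarbital the changes were 0.11 ± 0.25 on day 4 and 0.00 ± 0.25 on day 30.

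Igfbp1 showed the largest difference of any member, under phenobarbital. On day 4 its intensity was 234.4, 263.8, 209.3, 250.5 and 228.1 in phenobarbital livers, against 1694, 4871, 2568, 384.9 and 783.4 in control livers. On day 30 it was 382.9, 52.59, 73.35, 84.59 and 299.5, against 416.7, 494.9, 609.3, 550.6 and 1877. All treated arrays lay below all controls on both days, as was so for lower values of 2.22% of all genes on day 4 and 1.97% on day 30. The controls of day 4 spread from 384.9 to 4871, while the treated arrays of that day lay close together.

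The Igfbp1 change was -2.54 ± 0.80 on day 4 (5.83-fold lower) and -2.18 ± 0.80 on day 30 (4.53-fold lower, with 1 treated array below background). Neither passed limma's threshold over all genes (adjusted p = 0.163 and 0.427, unadjusted 0.00318 and 0.0101). The exact permutation test on Igfbp1 alone gave p = 0.0079 on each day, the smallest that 5 against 5 allows. Groups that do not overlap always give this value, so it adds nothing to the lack of overlap. With the spread taken from the compared arrays alone, the adjusted p was 0.0752 on day 4 and 0.128 on day 30.

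Under the conazoles limma called 0 of the 4 Igfbp1 differences, and 0 had an unadjusted p under 0.05. Igfbp1 was 910.6, 422.0 and 364.9 under propiconazole and 632.9, 282.2 and 428.3 under triadimefon on day 4, against 950.4, 522.5 and 331.6 in controls. On day 30 it was 823.6, 33.59 and 423.7 and 416.3, 47.07 and 1821 (propiconazole, triadimefon), against 44.87, 97.21 and 955.7. The groups overlapped on both days, and each day 30 group held 1 array below background. The changes were -0.08, -0.36, 0.48 and 0.97, each with an SE of 1.03, and the 95% intervals reached from -2.45 to 3.06. Without the array that stood apart, the propiconazole day 4 change was 0.07 ± 1.17. The difference from the phenobarbital change was largest for triadimefon on day 30, at 3.15 ± 1.30 (adjusted p = 0.302), and 0 of the 4 such differences were called, with 2 at an unadjusted p under 0.05.

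Irs2 was above background on 4 of 12 conazole arrays, 2 of 6 control arrays of that study, 1 of 10 phenobarbital arrays and 5 of 10 phenobarbital-study controls. Its readings lay between 3.21 and 178.1, mostly not above background, and no direction is given. Limma called 0 of its 6 changes, and 1 had an unadjusted p under 0.05.

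Control livers of the 2 days differed in 0 members by limma in either study, while 5.32% of genes were called between the days in the conazole study and 0% in the phenobarbital study. At an unadjusted p under 0.05 these were 2 members, G6pc and Tat, and 0, against 3474 and 668 of all genes. Neighbouring groups in the order of mean levels rarely stood apart by more than their SD. For Pcx the 4 control groups ranked highest, from 11.58 down to 11.45 in log2 units, then the phenobarbital groups at 11.435 and 11.35. The 4 conazole groups ranked lowest, from 11.14 to 10.72, and the gap between these and the phenobarbital groups was the only one that exceeded the larger SD of its pair.

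Some members also varied together between arrays of the same group. Over deviations from group means on 38 arrays, 3 of 36 pairs of members were correlated at an adjusted p under 0.05 (100000 permutations within groups, Benjamini-Hochberg over the pairs), and all 3 were positive. G6pc and Tat had the closest relation, with Pearson r = 0.661 and Spearman rho = 0.667 (permutation p = 7e-05 and 0.00011, adjusted 0.0025 and 0.004). It was 0.688 in the conazole study and 0.627 in the phenobarbital study, and 0.607 without the 2 arrays farthest from the median of G6pc. Pklr and Slc2a2 had r = 0.567 and rho = 0.498 (p = 0.0032 and 0.0061, adjusted 0.038 and 0.068), with r = 0.476 without the 2 farthest arrays. Without the array that stood apart this pair missed the threshold (r = 0.544, adjusted p = 0.051). Irs2 and Igfbp1 had r = 0.580 and rho = 0.546 (p = 0.00064 and 0.0021, adjusted 0.012 and 0.037), 0.520 without the 2 farthest arrays, 0.719 in the conazole study and 0.265 in the phenobarbital study, with Irs2 mostly below background.

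**Figure D4:**
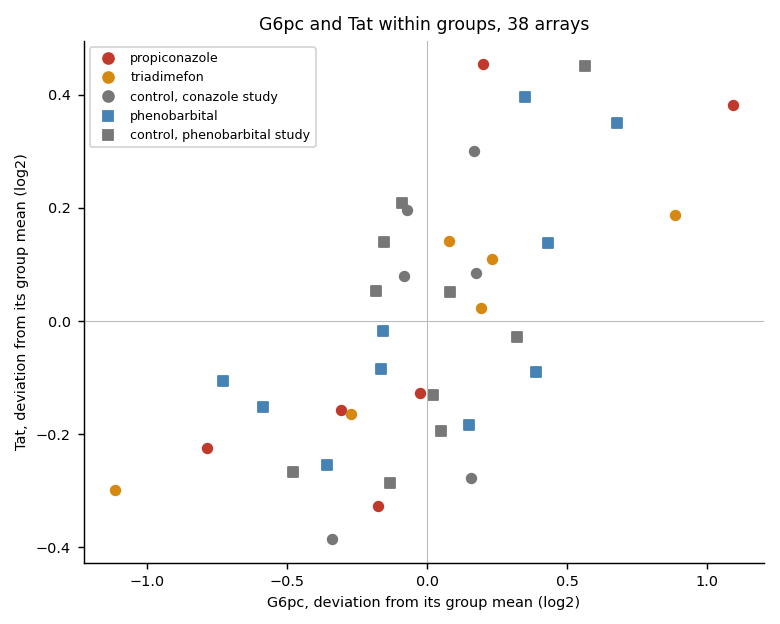
Deviation of Tat from its group mean against that of G6pc (log2), 1 point per array, with circles for the conazole study and squares for the phenobarbital study. The points rise together in both studies, with r = 0.688 and 0.627.

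For each member, the gene whose deviations were most like its own over the 38 arrays was sought among 8556 genes above background, as a description. For Pcx it was Tk2 (r = 0.887, and 0.783 without the array that stood apart), the mitochondrial thymidine kinase. For G6pc it was Slc25a25 (r = 0.814), a mitochondrial carrier of ATP-Mg and phosphate, and for Tat it was Noct (r = 0.761), the clock-related gene nocturnin. Fbp1 was most like Ghr (r = 0.769), the growth hormone receptor, and Pklr most like Galm (r = 0.799), galactose mutarotase. The partners of Pck1, Slc2a2, Igfbp1 and Irs2 were Synj1 (0.717), Sco2 (0.734), Rab4b (0.717) and Bad (0.695). By study, r was 0.898 in the conazole and 0.229 in the phenobarbital arrays for Fbp1 and Ghr, 0.865 and 0.317 for Igfbp1 and Rab4b, 0.791 and 0.361 for Irs2 and Bad, and 0.922 and 0.501 for Pcx and Tk2. For the other 5 pairs it was 0.631 or more in each study.

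Other genes of the same pathways were counted by list, without the 9 members. The shares of all genes called, to set beside each list's share, were 13.9% for propiconazole (9.41% without the array that stood apart) and 3.75% for triadimefon on day 4, and 10.8% and 5.4% on day 30. Among 27 measured gluconeogenic and glycolytic enzymes, 2 rose and 4 fell in propiconazole livers on day 4 (22.2% of the list, and 1 and 2 without the array that stood apart), 0 rose and 2 fell under triadimefon on day 4 (7.41%), and 0 rose and 3 fell under propiconazole on day 30 (11.1%). The other 3 comparisons had 0 called. Pfkfb3, an enzyme that makes and breaks down fructose 2,6-bisphosphate, was at least 1.09-fold higher under propiconazole on day 4 (adjusted p = 0.0492), above background on 2 of 3 treated and 0 of 3 control arrays, and was not called without the array that stood apart (0.195). Ldha, which converts pyruvate and lactate, fell by 0.60 ± 0.13 under triadimefon on day 4 (adjusted p = 0.00797). Ldha also fell under propiconazole, by 0.57 ± 0.13 on day 4 and 0.60 ± 0.13 on day 30, values noted after they were seen. Gpd1, the cytosolic glycerol phosphate dehydrogenase, fell by 0.42 ± 0.10 under triadimefon on day 4, while 2 other probe sets gave -0.07 and -0.11, neither called. Gpt2, the mitochondrial alanine aminotransferase, fell by 1.03 ± 0.265 and Pfkl, the liver phosphofructokinase, by 0.90 ± 0.25 under propiconazole on day 30. Other probe sets of both gave -0.61 to -0.04 there, with 0 called. Pfkl had also fallen by 1.08 ± 0.25 on day 4, a change of -0.66 that was not called without the array that stood apart (adjusted p = 0.0672).

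Amino acid catabolic enzymes, the group to which Tat belongs, held the largest share of called genes on day 30 of the conazoles among the pathway lists, after the CAR and PXR responsive genes. Of 19 measured, 9 fell and 0 rose in propiconazole livers on day 30 (47.4%, where 10.8% of all genes were called), and 7 fell and 0 rose in triadimefon livers on day 30 (36.8%, where 5.4% were called). On day 4, 4 fell under propiconazole (5 without the array that stood apart) and 2 under triadimefon (21.1% and 10.5% of the list). Uroc1, urocanate hydratase, and Cdo1, cysteine dioxygenase, were those 2, and fell by 0.39 ± 0.10 and 0.28 ± 0.08, while a second Uroc1 probe set gave -0.46, not called. Haao, an enzyme of kynurenine breakdown, fell by 0.56 ± 0.10 under propiconazole on day 4. Hal, the histidine lyase, fell by 1.01 ± 0.18 under propiconazole on day 4 (adjusted p = 0.000494), by 0.835 ± 0.18 on day 30 (0.00247) and by 0.75 ± 0.18 under triadimefon on day 30 (0.0123). Prodh, which starts proline breakdown, fell by 1.26 ± 0.26 under propiconazole on day 30 (0.00148), and Aadat, an aminotransferase of lysine and kynurenine breakdown, by 0.835 ± 0.22 under triadimefon on day 30 (0.0208). Under phenobarbital 0 of 19 were called on either day.

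Insulin and IGF signalling genes had 1 of 30 higher and 9 lower in propiconazole livers on day 4, and 0 higher and 5 lower without the array that stood apart. The 10 called were 33.3% of the list, where 13.9% of all genes were called. Foxo4, a forkhead factor, fell by 1.45 ± 0.32 on day 4 (adjusted p = 0.00297), and was at least 2.21-fold lower on day 30 under propiconazole, where its treated arrays were below background (adjusted p = 0.0011). On day 4 it was above background on 2 of 3 treated arrays. Igfals, the liver-made subunit of the circulating IGF complex, fell by 1.32 ± 0.345 on day 4 (-0.90, adjusted p = 0.11 without the array that stood apart) and by 1.17 ± 0.345 on day 30 (0.0249). Foxo1 was the 1 gene of this list called under triadimefon on day 4, where it fell by 1.02 ± 0.22 (0.00784) while 2 other probe sets gave -0.51 and 0.26, neither called, and Igfbp3 the 1 called on day 30, at -1.09 ± 0.28. On day 30 under propiconazole 1 rose and 3 fell (13.3%), and phenobarbital had 0 of 30 called on both days.

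Among 32 regulators of fasting glucose output, 3 rose and 4 fell under propiconazole on day 4 (21.9%, and 3 and 5 without the array that stood apart), 2 and 0 under triadimefon on day 4 (6.25%), 1 and 2 under propiconazole on day 30 (9.38%), and 1 and 1 under triadimefon on day 30 (6.25%). Sgk1, a kinase induced by glucocorticoids, rose by 1.77 ± 0.31 under propiconazole and 1.07 ± 0.31 under triadimefon on day 4 (adjusted p = 0.000408 and 0.0463). Crtc2, a coactivator of cAMP-driven transcription, changed by -1.66 ± 0.26 under propiconazole on day 4, but was above background on 0 of 3 treated and 1 of 3 control arrays. Ppargc1a, the coactivator PGC-1alpha, was at least 1.46-fold lower there, with 0 of 3 treated and 3 of 3 control arrays above background (adjusted p = 0.00315), a gene chosen after its values were seen. Klf15, a transcription factor of fasting metabolism, fell by 0.88 ± 0.28 under propiconazole on day 30 (0.0387). Prkar1a, a regulatory subunit of protein kinase A, fell by 0.46 ± 0.10 under triadimefon on day 30 (0.0068), while 2 other probe sets gave -0.40 and -0.24, neither called. Kat2a, an acetyltransferase that acts on the coactivator PGC-1alpha, was called higher in all 6 comparisons, from 0.75 ± 0.12 under phenobarbital on day 30 to 1.31 ± 0.16 under propiconazole on day 4, a comparison in which it was chosen after its values were seen. Its other 2 probe sets did not share this: 1 of their 12 changes was called, at 0.38 ± 0.13 under propiconazole on day 4, and they ran from -0.73 to 0.38.

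Of 17 glycogen enzymes, 2 rose and 2 fell in propiconazole livers on day 30 (23.5%, where 10.8% of all genes were called), and 1 rose and 1 fell on day 4 (11.8%, and 0 and 0 without the array that stood apart). Under triadimefon 1 rose on day 4 and 1 fell on day 30 (5.88% each), and under phenobarbital 0 were called. Ppp1r3c, a glycogen-targeting subunit of protein phosphatase 1, fell by 2.64 ± 0.62 in propiconazole livers on day 30 (adjusted p = 0.00485), where a second probe set gave -1.80 (0.053). Phkb, a subunit of phosphorylase kinase, rose by 1.09 ± 0.27 on day 30 (0.0085) and by 0.997 ± 0.273 on day 4 (0.0144), where Pgm1, a phosphoglucomutase, fell by 0.32 ± 0.09. Neither day 4 change was called without the array that stood apart (0.157 for Phkb and 0.209 for Pgm1). Under triadimefon, Gaa, the lysosomal alpha-glucosidase, rose by 0.565 ± 0.14 on day 4, and Phkg2, the catalytic subunit of phosphorylase kinase, fell by 0.50 ± 0.115 on day 30. A second Gaa probe set gave 0.61 on day 4, not called. Of 17 circadian genes, 2 fell under propiconazole on day 4 (11.8%), Cry2 by 1.57 ± 0.34 and Hlf by 1.14 ± 0.20. Without the array that stood apart these were -0.86 (adjusted p = 0.0326) and -1.15, and Cry2 was above background on 2 of 3 treated arrays. A second Hlf probe set gave -0.61, not called. On day 30, 3 fell (17.6%), among them Nfil3 by 1.39 ± 0.40 and Arntl by 1.12 ± 0.36. The other 4 comparisons had 0 of 17 called. The CAR and PXR responsive genes, in contrast, had 7 to 10 of 11 higher and 0 lower in every comparison. Among them Cyp2c55, a cytochrome P450, was 34.9- to 63.97-fold higher over the 6 comparisons. The highest value was for propiconazole on day 30, where it was above background on 2 of 3 control arrays.

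**Figure D5:**
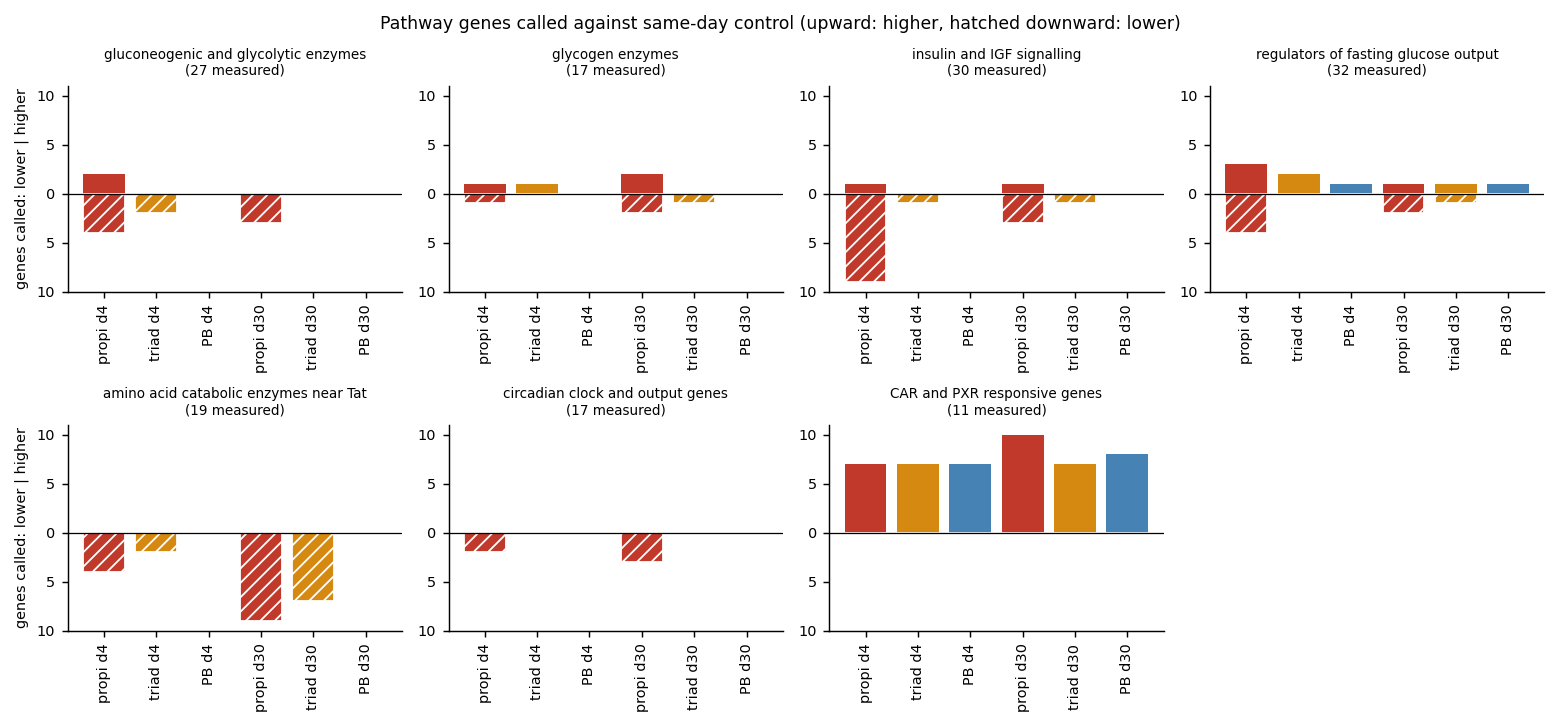
Number of genes called in each of 7 pathway lists and 6 comparisons, with bars up for higher and hatched bars down for lower genes (propi, propiconazole; triad, triadimefon; PB, phenobarbital; d, day). Amino acid catabolic enzymes reach 9 and 7 lower genes on day 30 of the conazoles, and the phenobarbital columns show calls in the CAR and PXR list and 1 fasting regulator.

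Markers of other liver cells were called in some groups. In a bulk sample, fewer cells of a type and less RNA per cell cannot be told apart. In propiconazole livers on day 4, 2 of 11 stellate cell and matrix markers were lower (18.2%, where 13.9% of all genes were called). These were Colec11 and Reln, and Reln missed the threshold without the array that stood apart (adjusted p = 0.0814). Summed intensities of the list were 3378 to 5383, against 4673 to 6891 in controls. On day 30 again 2 were lower, Lrat and Des (18.2%, where 10.8% were called), with sums of 4747 to 4828, against 6022 to 8120. Des was above background on 0 of 3 treated and 1 of 3 control arrays. The neutrophil sum ran from 559.5 to 6866 under propiconazole and 504.5 to 660.3 under triadimefon on day 4, against 352.5 to 551.8. Of 6 measured neutrophil markers 1, S100a8, was called in the propiconazole group (16.7%, where 13.9% of all genes were called). Its adjusted p was 0.129 without the array that stood apart. It was above background on 0 of 3 control arrays. In triadimefon livers on day 4, 3 of 11 endothelial markers were lower (27.3%, where 3.75% of all genes were called), with sums of 2380 to 3565, against 3133 to 5664. On day 30 under triadimefon, 5 of 12 Kupffer cell and macrophage markers were higher (41.7%, where 5.4% of all genes were called), with sums of 6706 to 20820, against 5668 to 7397. In the same livers the neutrophil sum was 1736 to 2351, against 395 to 516.9. Of 6 measured neutrophil markers 1 was called (16.7%), S100a8, at least 17.48-fold higher (adjusted p = 0.012). It was above background on 3 of 3 treated and 0 of 3 control arrays. Of 8 measured lymphocyte markers 1 was called (12.5%), the leukocyte gene Ptprc, at 1.45 ± 0.32 (0.00597), while the median change of that list was -0.04. Of 11 endothelial markers 3 were higher there (27.3%), with sums of 4934 to 5935, against 5306 to 5453. S100a8 was also called under propiconazole on day 30 (neutrophil sums 351 to 4905, against 395 to 516.9), as 1 of 6 neutrophil markers (16.7%, where 10.8% of all genes were called). It was above background there on 2 of 3 treated and 0 of 3 control arrays. Hepatocyte sums were 89680 to 97690 under propiconazole and 93650 to 95660 under triadimefon on day 4, against 97210 to 99000, and 90900 to 95160 and 97700 to 100100 on day 30, against 98840 to 100200. Of 8 measured lymphocyte markers 1, and of 6 biliary markers 2, had a mean above background. In phenobarbital livers on day 4, hepatocyte sums were 90410 to 94140, against 93600 to 98020. There 1 marker of all lists, the biliary gene Sox9, was called, 16.7% of its list, where 0.677% of all genes were called. It was above background on 5 of 5 treated and 0 of 5 control arrays. Sox9 was also called higher under propiconazole on both days and under triadimefon on day 4, and the biliary gene Epcam under propiconazole on both days. Sox9 was above background on 0 control arrays in each of these comparisons. Of 6 biliary markers, 2 were called under propiconazole on each day (33.3%, where 13.9% and 10.8% of all genes were called). Under triadimefon on day 4 it was 1 (16.7%, where 3.75% were called). The median change of the list was 0.35 and, on day 30, -0.013 under propiconazole, and 0.36 under triadimefon on day 4. Without the array that stood apart, Sox9 missed the threshold for propiconazole on day 4 (0.0899). Biliary sums were 495.2 to 622.9 under propiconazole and 514.6 to 698.4 under triadimefon on day 4, against 364.3 to 412.1, and 721 to 838.2 under propiconazole on day 30, against 447 to 604. The part of these shifts in the changes of Pcx, Fbp1, Slc2a2, Igfbp1 and the amino acid enzymes was not tested.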

How the data were processed

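Liver RNA was amplified and labelled with biotin from 4 ug of total RNA, per the labels' protocols, and hybridised to 38 arrays. The deposited values are linear intensities, 1 per probe set. The sources used here do not say how the authors summarised and scaled them. Of the deposited intensities 21.15% were below 0, and array medians ran from 12.49 to 36.09. The arrays were quantile normalized together, floored at 0 and taken as log2(intensity + 16), which understates changes of dim genes. Quantile normalization gives every array the same set of values, so equal intensities recur. Of 45101 probe sets, 34958 had 1 gene symbol in the platform annotation, 932 several and 9211 none listed; 13 control probe sets were left out. Each of 18193 genes was represented by its probe set with the highest mean, and 465 flat genes were not tested. Olfactory receptor genes (38 of them) set the background, at percentile 95 of their mean levels.

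One limma model (version 3.58.1 in R 4.3.3, 1 mean per group, variance trend, 28 residual degrees of freedom) was fitted to all arrays, and p-values were Benjamini-Hochberg adjusted over 17728 genes. Probe sets other than the chosen ones were tested in a second fit over 33618 probe sets. Exact permutation tests on 1 gene were two-sided and were added after seeing the data. With 3 against 3 arrays they cannot go below 0.10. Their p-values were not adjusted for the number of genes. Under phenobarbital on day 4 and day 30 they gave 0.373 and 0.508 for Pck1, 0.135 and 0.516 for Tat, and 0.571 and 0.976 for Pklr. For Slc2a2 they gave 0.579 and 0.0952, and for Irs2 0.452 and 0.0556. Correlations used deviations from group means. The fit was tested on simulated data. Genes outside the 9 members were named as the up to 2 called genes with the largest change per list and comparison, and, for each member, the gene most like it. The members, the lists and the use of quantile normalization were chosen with earlier results of these data known. The number of arrays limits the precision. Other software was Python 3.11.15, numpy 2.4.6, pandas 2.3.3, scipy 1.17.1 and matplotlib 3.10.9. Promoters were taken from RefSeq, build GRCm38.p6. Alternatives were the deposited values, median centring, normalization within each study, pseudocounts of 1 and 64, no variance trend, only genes above background, only the arrays compared, other probe sets, a replicate block and leaving out each array.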

Additional observations from a re-analysis of the deposited data

Results flagged for a closer look

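Of 36 sets examined, each 1 member in 1 group of 5 arrays, 4 held 1 array far from the others, where chance alone gives about 1 in 20. Tat read 6054 in replicate 3 of phenobarbital day 30, against 4045 to 4540 on the others. The gap was 0.7139 of the group's range in log2 units, the scale of all 4 gaps. Pklr read 1224 in replicate 3 of the phenobarbital-study controls of day 4, against 708.2 to 803.0 (gap 0.7712). Irs2 read 29.73 in replicate 4 of those controls, against 50.5 to 61.28 (gap 0.7137), with the low reading below background. Igfbp1 read 1877 in replicate 5 of the phenobarbital-study controls of day 30, against 416.7 to 609.3 (gap 0.7506), and the 4 other controls also lay above all treated arrays.

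A pair of differences between changes passed the test. For Slc2a2, the propiconazole change on day 30 exceeded that on day 4 by 0.949. For Pcx on day 4, the propiconazole change minus the phenobarbital change was -0.688, between compounds of unlike dose and study.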

How the results depend on the processing

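No direction of a called member reversed under any alternative run. In propiconazole livers on day 4, the 3 called members became 0 when the spread was taken from only the arrays compared, and 2 to 4 when 1 of the compared arrays was left out. In triadimefon livers on day 4, the 1 called member became 0 with values as deposited, with median centring and with only the arrays compared, and 2 when only genes above background were tested or without replicate 2 of propiconazole day 4 (0 to 1 over the compared arrays left out). In propiconazole livers on day 30, the 1 became 0 with values as deposited, median centring or only the arrays compared, and 2 with only genes above background (0 to 1 over the compared arrays left out). In triadimefon livers on day 30, 0 became 1 without replicate 2 of propiconazole day 4. Leaving out 1 of the compared arrays gave 0 to 0 calls there and under phenobarbital on both days. Fewer arrays stand behind the fit on only the arrays compared, and the cause of the other shifts was not tested. Pklr under propiconazole on day 4 passed with values as deposited (-1.06, adjusted p = 0.0435) and without propiconazole replicate 3 (-1.16, adjusted p = 0.00857). Correlated pairs of members numbered 3, against 4 with values as deposited and 2 without replicate 2 of propiconazole day 4.

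Over all genes, 2463 calls in propiconazole livers on day 4 became 8 with only the arrays compared and 1529 to 3853 with 1 compared array left out. For triadimefon on day 4, 665 became 1674 as deposited, 0 with only the arrays compared, 1280 without replicate 2 of propiconazole day 4, 416 with a replicate block and 216 to 852 with 1 compared array left out. For phenobarbital on day 4, 120 became 183 when normalized within each study, 328 with only the arrays compared, 247 without replicate 2 of propiconazole day 4 and 65 to 141 with 1 compared array left out. For propiconazole on day 30, 1917 became 1072 as deposited, 273 with only the arrays compared, 2798 without replicate 2 of propiconazole day 4 and 1277 to 1772 with 1 compared array left out. For triadimefon on day 30, 958 became 396 as deposited, 509 with median centring, 63 with only the arrays compared, 1709 without replicate 2 of propiconazole day 4 and 501 to 895 with 1 compared array left out. For phenobarbital on day 30, 85 became 237 with only the arrays compared, 123 without replicate 2 of propiconazole day 4 and 52 to 73 with 1 compared array left out. Higher and lower calls on day 4 were 1305 and 1158 for propiconazole, against 225 and 2370 as deposited and 588 and 1202 with median centring, and 373 and 292 for triadimefon, against 1562 and 112 and 580 and 174. As deposited, the median of all genes shifted by -0.157 under propiconazole and 0.17 under triadimefon on day 4. Same-numbered arrays did not pair (correlations of -0.104 to 0.155). With a replicate block, the Slc2a2 difference between days (adjusted p = 0.0562) and the Pcx difference between propiconazole and phenobarbital (0.065) missed the threshold, and the block changed no other member's call.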
